A study of Mus musculus with 12 samples.

Results

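The transcripts of hepcidin and of the main proteins that move and store iron were followed in the livers of 12 mice. The 10 genes, taken by symbol from the 38926 gene symbols counted, were Hamp and Hamp2 (the hepcidin genes), Tfrc and Tfr2 (transferrin receptors), Trf (transferrin), Slc40a1 (ferroportin), Fth1 and Ftl1 (ferritin heavy and light chains), Bmp6 (the bone morphogenetic protein that drives hepcidin) and Id1 (a transcript used as a readout of that signal). All 10 had enough reads to be tested. Liver RNA came from wild-type and Rev-erbα knockout (Rev-erbα-/-) mice at ZT8 and at ZT20, with 3 mice in each of the 4 groups. ZT is zeitgeber time in hours after lights on, so that ZT8 lies in the light phase, when these nocturnal animals rest, and ZT20 in the dark phase. All animals had the strain background 129Ola/C57BL6 and an age of 12 weeks. Per the study's methods they were males fed without restriction, and the knockouts came from heterozygous parents. The deletion was carried by every cell of the body and not by hepatocytes alone. No agent was given. REV-ERBα, the product of Nr1d1, represses transcription as a nuclear receptor of the circadian clock, and the comparison of genotypes at both times asked which liver transcripts depend on it.

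Hepcidin is a peptide hormone that hepatocytes secrete. It binds ferroportin, the cellular iron exporter, and causes its degradation, which holds iron inside macrophages, hepatocytes and gut cells. Its gene is driven by iron through bone morphogenetic proteins from the liver endothelium, which act on SMAD factors with hemojuvelin as a coreceptor, and by interleukin 6 during inflammation, through STAT3. Inside the cell, iron regulatory proteins bind hairpins called iron-responsive elements. At such hairpins behind the coding sequence they stabilise the mRNA of the transferrin receptor, and in front of the coding sequence they block translation of ferritin and ferroportin. Transcript levels of ferritin and ferroportin therefore do not show how much protein is made.

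Between 17641809 and 26060192 reads per liver were counted on genes, and 3 reads corresponded to 0.117 to 0.167 CPM, the read count relative to the library size as scaled by the TMM method. No pair of replicates was as alike as sampling noise would make it. The hepatocyte markers summed to between 58641 and 108700 CPM per liver, while the neutrophil markers summed to at most 7.43 CPM. Arntl, which REV-ERBα represses, was at 0.796, 0.448 and 0.712 CPM in wild type at ZT8 and at 24.3, 25.7 and 22.7 CPM in the knockouts. Reads were still assigned to Nr1d1 in the knockouts, with 63, 71.9 and 80.6 CPM at ZT8 against 129, 96.2 and 75.3 CPM in wild type. In 2 of the 3 wild-type livers at ZT8, the mice numbered 2 and 3, transcripts of acute phase proteins stood far above all other livers, with Saa1 (serum amyloid A1) at 4972 and 6489 CPM against 21.2 to 96.8 CPM in the other 10. Calls that rest on wild type at ZT8 are therefore set beside the values or list counts without these mice, an alternative chosen after seeing the data. Without them that group is a single mouse, whose spread is assumed to equal that of the other groups.

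The genomic positions below are those of mm10, the build the authors used. Hamp lies on chromosome 7 from 30942368 to 30944032 and Hamp2 from 30922372 to 30924681, both on the minus strand. The transcripts are near copies, with 94.6% of the aligned bases identical (388 of 410). Elements that tie Hamp to bone morphogenetic proteins and to STAT3 are known to lie in the 150 bases in front of its start site. These stretches of 150 bases are shown for Hamp and Hamp2, which differed in level. They come from RefSeq (GRCm38.p6), at chr7:30944030-30944179 for Hamp and chr7:30924182-30924331 for Hamp2, minus strand, with capitals for the letters GGCGCC (or the bases aligned with them) and TTCNNNGAA.
Hamp: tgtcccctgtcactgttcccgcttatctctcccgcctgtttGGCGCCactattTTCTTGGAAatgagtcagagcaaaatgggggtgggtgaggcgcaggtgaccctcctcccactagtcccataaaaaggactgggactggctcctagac
Hamp2: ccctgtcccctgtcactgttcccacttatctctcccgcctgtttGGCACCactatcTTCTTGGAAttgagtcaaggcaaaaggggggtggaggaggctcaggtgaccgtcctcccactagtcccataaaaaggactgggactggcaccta
Of the 147 aligned bases, 135 were the same. With positions counted from 1 at the 5′ end of the Hamp stretch, the substitution G45A fell inside GGCGCC, so that these letters were in the Hamp stretch and not in that of Hamp2, while TTCTTGGAA was in both. Of all 32851 promoter windows (250 bases before to 50 bases after a start site, both strands), 11.9% held GGCGCC and 8.3% held TTCNNNGAA. RefSeq windows were found for 7 of the 10 genes. Among these, GGCGCC was also in that of Tfrc, CACGTG (in 7.15% of all windows) was in that of Bmp6, and AGGTCA, the core of the element that REV-ERBα binds (in 16.3%), was in none. These are matches of letters and not measured binding sites, and whether they bear on the transcript levels was not tested.

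Letters of the iron-responsive element were searched in the GENCODE M21 transcripts as an unpaired C, 5 bases, the loop CAGTGN (last base not G) and 5 bases that pair with the 5 in front of the loop, G with T allowed. They were found in 4 of the 10 genes and in 1.01% of all protein-coding genes (222 of 21877). The further genes of hepcidin control and iron handling listed below held none. The element is known from ferritin, ferroportin and the transferrin receptor, so that the number found among the 10 genes is no test. The sites are shown, with the loop in capitals and 5 bases on either side, because they tie these transcripts to cellular iron.
Fth1, before the coding sequence: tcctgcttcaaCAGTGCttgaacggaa
Ftl1, before the coding sequence: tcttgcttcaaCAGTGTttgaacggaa
Slc40a1, before the coding sequence: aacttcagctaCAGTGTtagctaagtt
Tfrc, after the coding sequence, site 1: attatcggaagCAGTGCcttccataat
Tfrc, after the coding sequence, site 2: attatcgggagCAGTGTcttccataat
Tfrc, after the coding sequence, site 3: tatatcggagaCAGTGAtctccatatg
Tfrc, after the coding sequence, site 4: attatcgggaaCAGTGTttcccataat

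Of the 10 genes, Tfrc alone passed the test of genotype at ZT8, 2.14-fold higher in Rev-erbα-/-, and this was also the only one of them whose genotype effect differed between the times of day. At ZT20 no gene of the 10 passed the test for genotype. In wild-type liver, Tfrc and Hamp2 were higher at ZT20 than at ZT8, while Slc40a1 and Id1 were lower. Of these calls, only the rise of Tfrc over time in wild type passed whichever single liver was left out. Leaving out the wild-type mice at ZT8 with high acute phase transcripts kept a single mouse in that group. Tfrc then differed by 0.82 between genotypes at ZT8 (log2, 1.09 with all livers) and by 1.18 between the genotype effects (1.46). Over time in wild type Tfrc was then 0.95 (1.23), Hamp2 1.44 (2.31), Slc40a1 −0.20 (−0.50) and Id1 −1.25 (−0.78). In Rev-erbα-/- liver none of the 10 passed the test between the times with edgeR, and Hamp did with DESeq2. Hamp itself, which per kilobase of all annotated exons had the highest level of the 10, passed no test in this fit.

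The tests were made with edgeR's quasi-likelihood method over all 12 livers, with Benjamini-Hochberg adjustment over 14488 genes and a threshold of 0.05. At ZT8, 1 of the 10 genes passed, where 8.45% of all tested genes did, and DESeq2 called 2 (11.3% of all genes). At ZT20, 0 of 10 passed, against 3.63% of all genes, and DESeq2 called 1 (Hamp2, 4.37% of all genes). At that time 3 of the 10 had an unadjusted p below the threshold, as had 2116 of all 14488 genes. The difference of the genotype effects passed for 1 of 10, against 5.88% of all genes (1 with DESeq2, against 6.99%). Between ZT8 and ZT20, 4 of 10 passed in wild type, against 27.7% of all genes (4 with DESeq2, against 24.3%), and 0 of 10 in the knockout, against 17.5%. In the knockout 2 of the 10 had an unadjusted p below the threshold (4415 of all 14488 genes), and DESeq2 called 1 (Hamp, 17.1% of all genes). These counts are close to what the share among all genes gives for 10 genes. With 1 liver left out, the count in wild type was 1 without the mouse 1 or 2 at ZT20 and 2 without the mouse 2 or 3 at ZT8, and that at ZT8 was 0 to 3. Groups of 3 mice that did not overlap were seen for 2 of 10 genes at ZT8 (25.6% of all tested genes), 3 of 10 at ZT20 (22.5%), 3 of 10 across time in wild type (42.3%) and 2 of 10 across time in the knockout (35%). The median log2 difference of the 10 genes was 0.03 at ZT8 and 0.07 at ZT20, beside 0.0018 and −0.0007 over all tested genes. The comparisons at ZT8 and across time in wild type share the wild-type livers at ZT8, so that they are not independent of each other. Nothing in the labels says whether the mice of a group shared a litter or cage, and in whole liver a smaller number of cells of a type and less RNA per cell cannot be told apart.

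**Figure D1:**
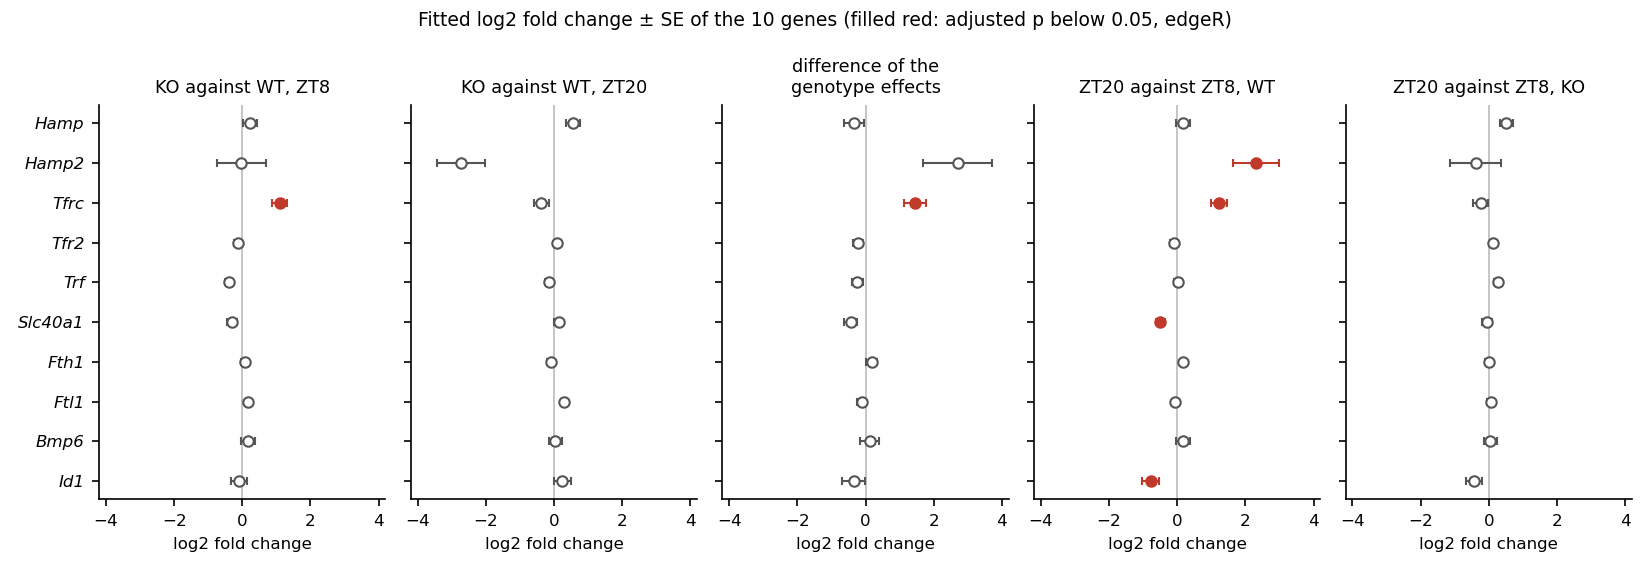
Fitted log2 fold changes (horizontal axes) of the 10 genes with standard errors, in the 5 comparisons, with filled red points for an adjusted p below 0.05 (edgeR, 3 mice per group). Tfrc is filled for genotype at ZT8, for the difference of the genotype effects and for time in wild type, and the estimate of Hamp2 has the widest error bars.

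Compared per kilobase of exon, with all annotated exons of a gene joined, Hamp had the highest level in every group. It had 942 ± 188 CPM per kb in wild type at ZT8 and 1576 ± 433 in Rev-erbα-/- at ZT20 (SD, n = 3). Fth1, Ftl1 and Trf followed, with group means between 251 and 398 CPM per kb. This order depends on the joined length, which was 410 bases for Hamp and 3469 for Fth1. In CPM alone Fth1 was higher, with group means of 1172 to 1331 beside 386 to 646 for Hamp. Bases shared with other genes may lower the values of Ftl1 and Trf. Tfr2 lay between 92.5 and 101 CPM per kb and Slc40a1 between 20.9 and 29.5. Hamp2 had 7.01 to 46.8 CPM per kb, above Slc40a1 in wild type at ZT20 and below it in the other groups. The levels were lower still for Tfrc, Id1 and Bmp6 on the same scale, with Tfrc at 3.45 to 8.1, Id1 4.07 to 6.93 and Bmp6 1.5 to 1.74. The transferrin receptor that liver expressed at the higher level was thus Tfr2, which hepatocytes use as a sensor of transferrin iron, and not Tfrc, which takes up iron.

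Hamp was counted at 404, 301 and 453 CPM in mice 1, 2 and 3 of wild type at ZT8 and at 466, 468 and 423 CPM in the Rev-erbα-/- mice. At ZT20 it was at 371, 403 and 533 CPM in wild type and at 508, 585 and 847 CPM in Rev-erbα-/-. The levels of all 3 knockouts at ZT20 lay above those of the knockouts at ZT8, but between genotypes the groups overlapped at both times. The highest single liver, a knockout at ZT20, had 847 CPM, and the lowest, a wild type at ZT8, 301 CPM. In the order of group means, Rev-erbα-/- at ZT20 (646 CPM) stood above Rev-erbα-/- at ZT8 (452), wild type at ZT20 (436) and wild type at ZT8 (386), and the last 3 overlapped one with the next. The log2 fold change between genotypes was 0.23 at ZT8 (SE 0.20, adjusted p = 0.546, edgeR) and 0.57 at ZT20 (SE 0.20, adjusted p = 0.189, edgeR). Between times it was 0.17 in wild type (adjusted p = 0.574, edgeR) and 0.52 in Rev-erbα-/- (SE 0.20, adjusted p = 0.106, edgeR). The last value passed the threshold with DESeq2 (adjusted p = 0.0388) and without the knockout numbered 1 at ZT20 (0.66, adjusted p = 0.0491, edgeR). Without the knockout numbered 3 at ZT20, the liver with 847 CPM, the genotype value at ZT20 was 0.33 and the time value in Rev-erbα-/- 0.27.

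Hamp2, the second hepcidin gene of the mouse, had the widest range of the 10 genes. In wild type it was at 10, 5.08 and 0.966 CPM at ZT8 and at 34.2, 29.6 and 17.9 CPM at ZT20. In Rev-erbα-/- it was at 5.87, 5.67 and 4.65 CPM at ZT8 and at 6.84, 4.09 and 1.33 CPM at ZT20. The 3 wild-type livers at ZT20 were thus above the other 9, which overlapped. Hamp2 rose from ZT8 to ZT20 in wild type by 2.31 on the log2 scale, or 4.96-fold (SE 0.68, adjusted p = 0.0361, edgeR), while in Rev-erbα-/- the difference was −0.39 (SE 0.75, adjusted p = 0.780, edgeR). At ZT20 the Rev-erbα-/- mean was 6.62-fold lower than wild type (log2 −2.73, SE 0.70), which missed the threshold (adjusted p = 0.0869, edgeR) and passed it with DESeq2 (adjusted p = 0.0103). The difference of the genotype effects was 2.70 (SE 1.01) and did not pass the threshold (adjusted p = 0.182, edgeR). The rise in wild type missed the threshold when any 1 of 7 livers was left out, with values of 1.84 to 2.31, of which the lowest was without the wild-type mouse 3 at ZT8. It was 1.44 (adjusted p = 0.264, edgeR) without the mice 2 and 3. Those 7 were the wild-type mice 2 and 3 at ZT8 and 1 and 2 at ZT20, and the knockouts 1 and 2 at ZT8 and 2 at ZT20.

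Since Hamp and Hamp2 are near copies, the share of hepcidin reads that fell on Hamp2 was computed in each liver, with exact binomial 95% intervals that cover counting error only. In wild type at ZT20 Hamp2 took 8.45% (interval 7.87 to 9.05), 6.83% (6.34 to 7.35) and 3.26% (2.95 to 3.59) of the reads of both genes. In wild type at ZT8 it took 2.42%, 1.66% and 0.213%. The knockouts had 1.25%, 1.2% and 1.09% at ZT8 and 1.33%, 0.695% and 0.157% at ZT20. The 3 wild-type livers at ZT20 had the highest shares, and the intervals of neighbouring mice within that group did not overlap, so that mice differed by more than counting error. Of the stretches of 75 bases, the read length, 3.87% in Hamp and 6.29% in Hamp2 also occur in another annotated transcript, and reads that lie in them are not counted on either gene, so that the split between the copies is uncertain. With both rows added together, the log2 fold changes of hepcidin were 0.22 and 0.49 between genotypes at ZT8 and ZT20, and 0.24 and 0.51 between times in wild type and Rev-erbα-/-, and none passed the test (lowest adjusted p = 0.0889, edgeR). Without the wild-type mice 2 and 3 at ZT8, the sum of Hamp and Hamp2 differed by 0.14 between genotypes at ZT8 and by 0.15 between times in wild type (adjusted p = 0.887 and 0.776, edgeR).

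**Figure D2:**
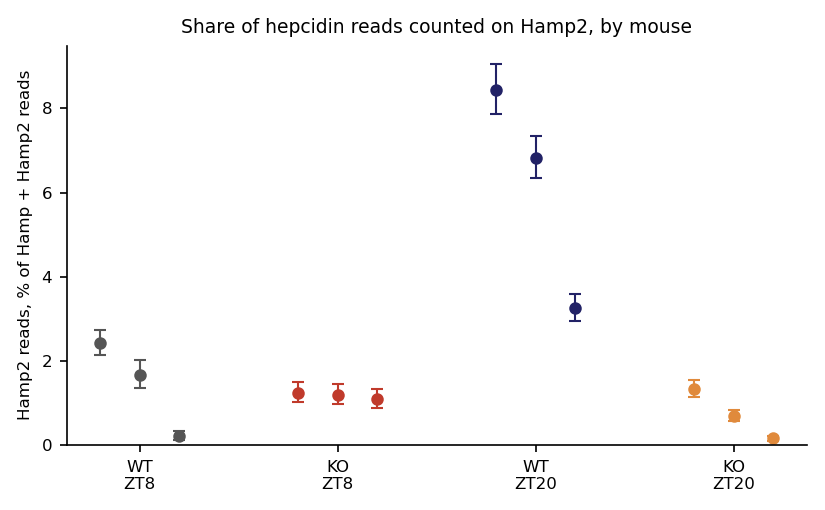
Reads counted on Hamp2 as a percent of the reads on Hamp and Hamp2 (vertical axis) in each liver, by group, with exact binomial 95% intervals as bars. The wild-type livers at ZT20 lie between 3.26% and 8.45% and all others at or below 2.42%.

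Tfrc, the receptor through which cells take up transferrin-bound iron (chromosome 16, 32608920 to 32632794, plus strand), was at 25.8, 22 and 16.2 CPM in wild type at ZT8. In Rev-erbα-/- at ZT8 it was at 53.6, 45.4 and 38 CPM. At the later time Tfrc was at 60.5, 52 and 37.9 CPM in wild type and at 47.1, 36.7 and 32.7 CPM in Rev-erbα-/-. The 3 wild-type livers at ZT8 lay below the other 9, and the other 3 groups overlapped. The log2 fold change between genotypes at ZT8 was 1.09 (SE 0.23, adjusted p = 0.0185, edgeR, 3.39e-06 with DESeq2). At ZT20 it was −0.37 (SE 0.22, adjusted p = 0.521, edgeR), and the difference of both effects was 1.46 (SE 0.32, adjusted p = 0.0274, edgeR). In wild type Tfrc rose from ZT8 to ZT20 by 1.23 (SE 0.23, adjusted p = 0.00323, edgeR), while the value in Rev-erbα-/- was −0.23 (SE 0.22, adjusted p = 0.539, edgeR).

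The rise over time of Tfrc in wild type passed the threshold whichever single liver was left out, whereas the other calls of Tfrc did not. The genotype effect at ZT8 lost the call without the wild-type mouse 2 (1.12, adjusted p = 0.0676, edgeR) or 3 (0.93, adjusted p = 0.0549), or the knockout 1 (0.96, adjusted p = 0.068) or 2 (1.10, adjusted p = 0.0606), but kept its direction. The difference of the genotype effects lost it when any 1 of 7 livers was left out, with values of 1.30 to 1.48. These were the wild-type mouse 2 and the knockouts 1 and 2 at ZT8, and the wild-type mice 1 and 2 and the knockouts 2 and 3 at ZT20. Without both the mice 2 and 3 of wild type at ZT8, Tfrc differed by 0.82 between genotypes at ZT8 (adjusted p = 0.301, edgeR), by 0.95 between times in wild type (adjusted p = 0.0993, edgeR) and by 1.18 between the genotype effects (adjusted p = 0.178, edgeR). The remaining wild-type liver at ZT8 had 25.8 CPM, below the 32.7 CPM of the lowest liver in the other groups. The erythroid markers, of cells that take up much iron through Tfrc, summed to 112 to 246 CPM in wild type at ZT8, 213 to 265 in Rev-erbα-/- at ZT8, 201 to 240 in wild type at ZT20 and 167 to 288 in Rev-erbα-/- at ZT20. Most of that sum was Alas2 (95.9 to 209 CPM), and the part of erythroid RNA in the Tfrc result was not tested.

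Tfr2, which senses transferrin iron on hepatocytes and supports hepcidin expression (chromosome 5, 137569840 to 137587481, plus strand), was the steadiest of the receptors. It was at 389, 451 and 474 CPM in wild type and at 354, 392 and 458 CPM in Rev-erbα-/- at ZT8, and at 435, 388 and 404 CPM and 466, 429 and 421 CPM at ZT20. All groups overlapped, and the log2 fold changes between genotypes were −0.13 at ZT8 (adjusted p = 0.507, edgeR) and 0.10 at ZT20 (adjusted p = 0.746, edgeR). The values between times were −0.10 in wild type and 0.13 in Rev-erbα-/-.

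Trf, the plasma iron carrier that the liver secretes (chromosome 9, 103204001 to 103230444, minus strand), was at 996, 1180 and 1093 CPM in wild type and at 753, 752 and 996 CPM in Rev-erbα-/- at ZT8. Trf at ZT20 was at 1031, 1061 and 1224 CPM in wild type and at 1001, 1019 and 972 CPM in Rev-erbα-/-. All knockouts were below the lowest wild-type liver at both times, by less than 1 CPM at ZT8. The log2 fold change was −0.39 at ZT8 (SE 0.12), just short of the threshold (adjusted p = 0.0574, edgeR) and past it with DESeq2 (adjusted p = 0.0116). It also passed without the wild-type mouse 1 (−0.45, adjusted p = 0.0259, edgeR) or the knockout 3 at ZT8 (−0.53, adjusted p = 0.01, edgeR), and was −0.26 (adjusted p = 0.536, edgeR) without the wild-type mice 2 and 3. At ZT20 the value was −0.15 (adjusted p = 0.645, edgeR). In Rev-erbα-/- the difference between times was 0.26 (adjusted p = 0.155, edgeR), and without the knockout 3 at ZT8 it was 0.41 (adjusted p = 0.0248, edgeR). In GENCODE M21, 63.5% of the exonic bases of Trf also belong to Gm20425, which was at 0 counts in every liver. Gm20425 is among the gene symbols the authors counted, and in union mode reads in exons of both genes are set aside as ambiguous. How many reads of Trf were lost in this way is not known, since the annotation release is not given in the sources used here.

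**Figure D3:**
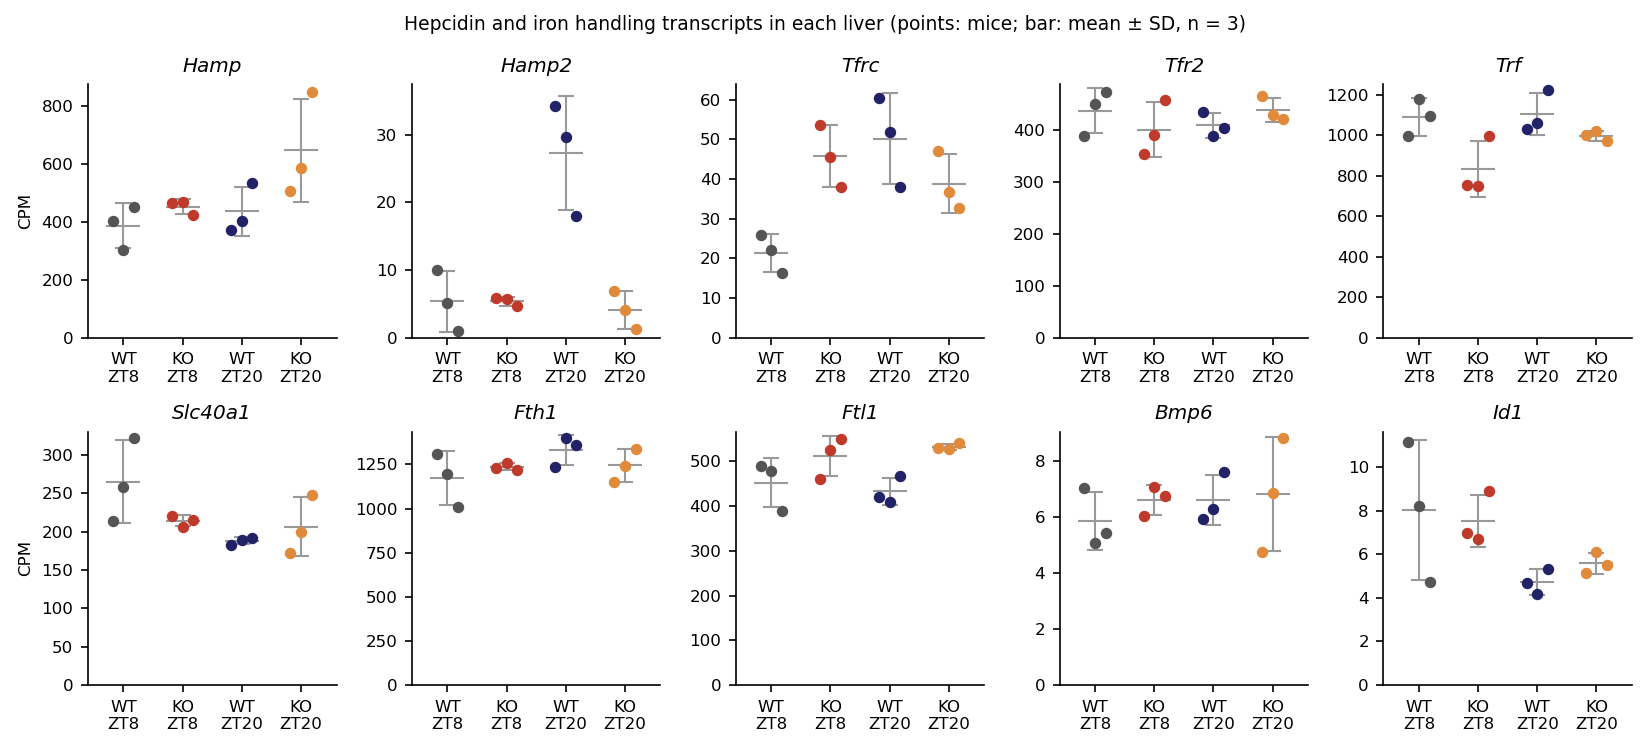
CPM (vertical axes, from 0) of the 10 genes in each of the 12 livers, with 1 panel per gene and 1 column of points per group, and the mean ± SD of 3 mice as bars. The low group of Tfrc is wild type at ZT8 (16.2 to 25.8 CPM) and the high group of Hamp2 is wild type at ZT20 (17.9 to 34.2 CPM).

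Slc40a1, the only known cellular iron exporter and the target of hepcidin (chromosome 1, 45908068 to 45926523, minus strand), was at 215, 259 and 323 CPM in wild type at ZT8. It was at 221, 207 and 216 CPM in Rev-erbα-/- at ZT8, at 183, 189 and 192 CPM in wild type at ZT20 and at 172, 200 and 248 CPM in Rev-erbα-/- at ZT20. Every wild-type liver at ZT20 was below every liver of either genotype at ZT8, while the other pairs of groups overlapped. Slc40a1 fell from ZT8 to ZT20 in wild type by 0.50 on the log2 scale (SE 0.14, adjusted p = 0.0169, edgeR), and was −0.06 in Rev-erbα-/- (adjusted p = 0.831, edgeR). Between genotypes the values were −0.31 at ZT8 (SE 0.14, adjusted p = 0.202, edgeR) and 0.13 at ZT20 (adjusted p = 0.747, edgeR).

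The call of Slc40a1 across time rested on few livers. It was lost without the wild-type mouse 3 at ZT8 (−0.33, adjusted p = 0.0739, edgeR) and without the wild-type mouse 1 (−0.48, adjusted p = 0.0612) or 2 (−0.50, adjusted p = 0.0522) at ZT20. Without the wild-type mice 2 and 3 at ZT8 the difference was −0.20 (adjusted p = 0.468, edgeR). Without the wild-type mouse 1, Slc40a1 was lower in Rev-erbα-/- at ZT8 (−0.44, adjusted p = 0.0339, edgeR), and the genotype effects differed (−0.58, adjusted p = 0.0482, edgeR). Kupffer cells, the liver macrophages that recycle red cells, express Slc40a1. Their markers (5 of 6 listed) summed to 249, 330 and 399 CPM in mice 1, 2 and 3 of wild type at ZT8, where Slc40a1 was also lowest in mouse 1 and highest in mouse 3. The marker sum was 225 to 281 CPM in Rev-erbα-/- at ZT8, 221 to 271 in wild type at ZT20 and 261 to 312 in Rev-erbα-/- at ZT20. Of these markers, Cd5l and Marco also fell from ZT8 to ZT20 in wild type (log2 −0.85, adjusted p = 0.00762, and −2.65, adjusted p = 0.0244, edgeR), while Clec4f (−0.10), Vsig4 (−0.21) and Timd4 (−0.07) did not pass. Cd5l was at 97.6, 144 and 178 CPM and Marco at 1.59, 4.48 and 7.78 CPM in mice 1, 2 and 3 of wild type at ZT8, higher in the mice with high acute phase transcripts. Without these mice the values of Cd5l and Marco were −0.34 and −1.14 (adjusted p = 0.174 and 0.443, edgeR). The part of these cells in the Slc40a1 result was not tested.

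The ferritin genes, whose products store iron in a shell of both chains, passed no test. Fth1 (chromosome 19, 9980598 to 9985098, plus strand) was at 1311, 1197 and 1007 CPM in wild type and at 1232, 1257 and 1218 CPM in Rev-erbα-/- at ZT8. Fth1 at ZT20 was at 1237, 1397 and 1358 CPM in wild type and at 1153, 1239 and 1340 CPM in Rev-erbα-/-. All groups overlapped, and the log2 fold changes of Fth1 in the pairwise comparisons lay between −0.10 and 0.18, none past the threshold (lowest adjusted p = 0.227, edgeR). Ftl1 (chromosome 7, 45457944 to 45459884, minus strand) was at 489, 478 and 389 CPM in wild type and at 462, 525 and 550 CPM in Rev-erbα-/- at ZT8. Ftl1 at ZT20 was at 421, 410 and 468 CPM in wild type and at 531, 527 and 541 CPM in Rev-erbα-/-. The genotypes did not overlap at ZT20, with a log2 fold change of 0.30 (SE 0.10, adjusted p = 0.149, edgeR), and overlapped at ZT8 (0.18, adjusted p = 0.306, edgeR). Ftl1 shares 51.3% of its stretches of 75 bases with other annotated genes, most of them its pseudogenes, so that its counts come from what is left and are uncertain. Of the near copies by symbol, Ftl2 and Fthl17 had no read in any liver and Fth-ps2 at most 0.119 CPM.

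Bmp6 is made in liver mainly by the sinusoidal endothelium, which releases it when iron is high. Its transcript (chromosome 13, 38345107 to 38500302, plus strand) was at 7.04, 5.08 and 5.44 CPM in wild type and at 6.02, 7.06 and 6.76 CPM in Rev-erbα-/- at ZT8. At ZT20 it was at 5.91, 6.28 and 7.6 CPM in wild type and at 4.74, 6.86 and 8.8 CPM in Rev-erbα-/-. All groups overlapped, and the log2 fold changes in the pairwise comparisons lay between 0.04 and 0.17 with adjusted p of at least 0.580 (edgeR). The endothelial markers summed to 286 to 337 CPM over all livers. Single markers differed in spread, with Stab2 at 88 to 98.3 CPM and Lyve1 at 1.66 to 16.3 CPM.

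Id1, which BMP and SMAD signalling induces in hepatocytes and endothelium (chromosome 2, 152736251 to 152737410, plus strand), was at 11.2, 8.22 and 4.73 CPM in wild type at ZT8. It was at 6.96, 6.72 and 8.91 CPM in Rev-erbα-/- at ZT8, at 4.7, 4.16 and 5.32 CPM in wild type at ZT20 and at 5.16, 6.12 and 5.51 CPM in Rev-erbα-/- at ZT20. Wild type at ZT8 had the widest spread, from 4.73 to 11.2 CPM, and overlapped wild type at ZT20, whereas the knockouts at the 2 times did not overlap. Id1 fell from ZT8 to ZT20 in wild type by 0.78 on the log2 scale (SE 0.24, adjusted p = 0.0297, edgeR) and was −0.43 in Rev-erbα-/- (SE 0.24, adjusted p = 0.251, edgeR). The difference of the genotype effects was −0.35 (adjusted p = 0.631, edgeR). Id1 lost its call without the wild-type mouse 1 at ZT8 (−0.47, adjusted p = 0.113, edgeR) or 2 at ZT8 (−0.77, adjusted p = 0.0772), or 1 (−0.77, adjusted p = 0.0845) or 2 (−0.69, adjusted p = 0.111) at ZT20. Without the wild-type mice 2 and 3 at ZT8 the fall was 1.25 (adjusted p = 0.000662, edgeR), since the remaining mouse had the highest Id1 of all 12.

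Within wild type at ZT8, hepcidin and the acute phase transcripts were set side by side mouse by mouse. Saa1 was at 60.8, 4972 and 6489 CPM in the mice 1, 2 and 3, and Saa2 at 13.6, 4849 and 6137 CPM, although reads are partly shared between both. Orm2 (orosomucoid 2) was at 9.51, 313 and 425 CPM and Lcn2 (lipocalin 2, which binds bacterial iron chelators) at 3.3, 307 and 393 CPM. Socs3, which STAT3 induces and which limits cytokine signalling, was at 7.96, 23.3 and 29.8 CPM. These transcripts were thus high in mice 2 and 3 and within or near the range of the other groups in mouse 1. Hamp was at 404, 301 and 453 CPM in the same mice, so that one of the 2 mice with high acute phase transcripts had the lowest Hamp of all 12 livers and the other lay near the median of the 9 mice of the other groups (468 CPM). Relative to that median, Saa1 was 137-fold and 178-fold higher in mice 2 and 3, and Hamp was at 0.644 and 0.967 of it.

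Among the transcripts that report BMP and SMAD activity, Id1 was at 11.2, 8.22 and 4.73 CPM and Id2 at 110, 91 and 78.8 CPM in mice 1, 2 and 3 of wild type at ZT8. Id3 was at 42, 42.9 and 37.5 CPM, below all 9 mice of the other groups (58 to 85.6 CPM). Smad6 was at 7.12, 7.07 and 5.8 CPM and Smad7 at 19.1, 21.5 and 25.4 CPM. The mouse with the highest Saa1, number 3, had the lowest Id1, Id2, Id3 and Smad6 of the 3 and the highest Smad7. Of the haem and haemoglobin binders of plasma, Hp was at 1944, 6316 and 7985 CPM and Hpx at 3074, 7580 and 9962 CPM, high in mice 2 and 3. Cd163, the macrophage receptor for haptoglobin with haemoglobin, was at 20.1, 32 and 44 CPM. With 3 mice, no relation between these transcripts and hepcidin was tested.

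**Figure D4:**
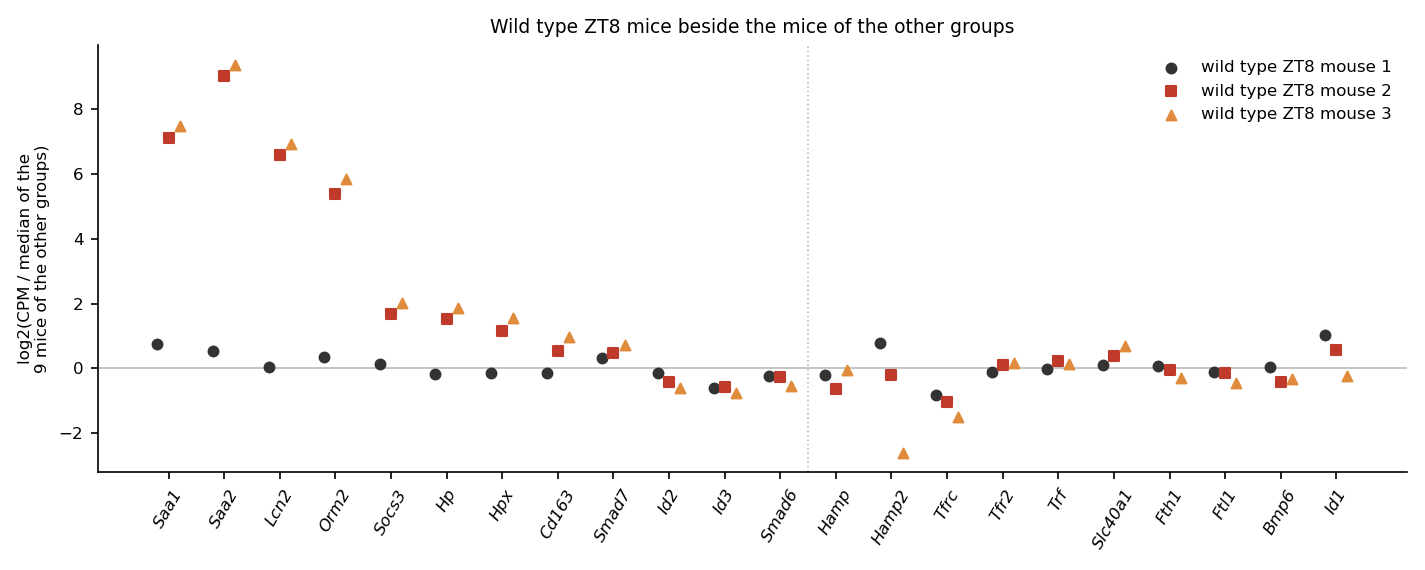
Each wild-type mouse at ZT8 relative to the median of the 9 mice in the other groups, as log2 of the ratio of CPM (vertical axis), for acute phase, macrophage and BMP target transcripts (left of the dotted line) and the 10 iron genes (right). Mice 2 and 3 lie near 7 for Saa1, while the 3 mice lie between −0.63 and −0.05 for Hamp.

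Of 22 tested genes around the BMP and SMAD control of hepcidin, 2 were higher and 2 lower in Rev-erbα-/- at ZT8, beside 4.4% higher and 4.04% lower over all genes. Hfe2 (hemojuvelin, the coreceptor) rose by 0.35 (SE 0.07, adjusted p = 0.00442, edgeR) and Id3 by 0.68 (SE 0.10, adjusted p = 0.00059, edgeR). Acvr2b (an activin receptor) fell by 1.12 (SE 0.24, adjusted p = 0.0104, edgeR) and Fst (follistatin, which binds activin) by 1.27 (SE 0.30, adjusted p = 0.0166, edgeR). None passed at ZT20, by edgeR or by DESeq2, and 4 had an unadjusted p below the threshold (2116 of all 14488 genes). The difference of the genotype effects passed for Hfe2 alone (0.36, adjusted p = 0.0323, edgeR). The median of the list was 0.02 at ZT8, beside 0.0018 for all genes. With the wild-type mice 2 and 3 left out, 1 gene was higher and 0 lower at ZT8, and 0 passed for the difference.

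Over time in wild type, 7 of these 22 genes were higher at ZT20 and 2 lower (13.8% and 13.9% of all genes; 6 and 1 with DESeq2), with a list median of 0.26. The 8 with the largest changes were Fst (1.14), Hfe2 (0.96), Acvr2b (−0.66), Id3 (0.56), Id2 (0.49), Smad6 (0.44), Acvr1 (−0.39) and Acvr2a (0.30), all on the log2 scale. Hfe2 was at 62.8, 59.6 and 55 CPM at ZT8 and at 116, 116 and 115 CPM at ZT20. Id2, Id3 and Smad6 were higher at ZT20 while Id1 was lower. The call of Id1 was lost when any 1 of 4 livers was left out, and why these targets of the signal differed was not tested. Without the wild-type mice 2 and 3 at ZT8, the values of Id2, Id3 and Smad6 were 0.25, 0.51 and 0.34, and that of Id1 was −1.25. When the wild-type mice 2 and 3 at ZT8 were left out, 4 of the genes were higher and 0 lower. In Rev-erbα-/-, 3 were higher (Fst 1.92, Hfe2 0.60, Smad6 0.46) and 0 lower by edgeR and by DESeq2, beside 8.79% and 8.67% of all genes with edgeR. There 7 had an unadjusted p below the threshold (4415 of all 14488 genes), and the list median was 0.15.

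Of 9 tested genes of the cytokine branch, none passed for genotype at either time or for the difference of the genotype effects by edgeR. An unadjusted p below the threshold was seen for 5 at ZT8, 2 at ZT20 and 2 for the difference. Over all 14488 genes these counts were 3404, 2116 and 2844. DESeq2 called 1, 1 and 2 of the 9, beside 11.3%, 4.37% and 6.99% of all genes. With the wild-type mice 2 and 3 left out, 1 passed for the difference and 0 at either time. Between times, 4 were lower and 0 higher at ZT20 in wild type, beside 13.9% and 13.8% of all genes. These were Inhbb (the activin B subunit, −2.09, adjusted p = 0.00298, edgeR), Socs3 (−1.72, adjusted p = 0.0414), Il6ra (the interleukin 6 receptor, −0.63, adjusted p = 0.0228) and Jak1 (−0.24, adjusted p = 0.0279). Inhbb was at 1.31, 2.89 and 4.58 CPM at ZT8, lowest in the mouse with low acute phase transcripts, and at 0.465, 0.619 and 0.939 CPM at ZT20. Without the wild-type mice 2 and 3 at ZT8, the values were −0.96 for Inhbb, −0.38 for Socs3, −0.54 for Il6ra and −0.12 for Jak1. That fit has a single mouse in the group. Il6ra lay between 64.5 and 72.1 CPM in the 3 wild-type mice at ZT8. In Rev-erbα-/-, Stat3 rose by 0.28 (adjusted p = 0.0231, edgeR), and Il6ra (−1.12, adjusted p = 0.002) and Il1r1 (−0.83, adjusted p = 0.0124) were lower at ZT20, beside 8.79% of all genes higher and 8.67% lower.

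Of 28 further genes of iron uptake, export and storage, 27 were in the files and 24 tested. At ZT8, 1 was higher in Rev-erbα-/- and 5 were lower, beside 4.4% and 4.04% of all genes. Slc11a2 (the divalent metal transporter) rose by 0.39 (adjusted p = 0.00183, edgeR), from 36.9, 38.2 and 35.9 CPM to 47.8, 48.1 and 49.4 CPM. Steap2 (a metalloreductase, −1.26), Slc25a37 (mitoferrin, which carries iron into mitochondria, −0.47), Epas1 (the hypoxia factor HIF-2α, −0.52), Hp (−1.68) and Lcn2 (−6.03) were lower. The last pair are acute phase transcripts, and without the wild-type mice 2 and 3 the list had 0 higher and 2 lower (Slc25a37 −0.67, Epas1 −0.52). The acute phase list itself had 9 of 17 genes lower at ZT8 and, over time in wild type, 1 higher and 8 lower at ZT20. The wild-type mice 2 and 3 at ZT8 were set apart by such transcripts, so that leaving them out is no test of this list. At ZT20, only Ncoa4 of the iron list passed, and of the acute phase list only Saa4 (−0.51, adjusted p = 0.0366, edgeR). The median of the iron list was −0.18 at ZT8 and −0.03 at ZT20.

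Ncoa4, the receptor that delivers ferritin to the lysosome, had the largest genotype effect of the iron list at ZT20. It was at 10.7, 8.71 and 10.4 CPM in wild type and at 3.15, 2.61 and 1.87 CPM in Rev-erbα-/- at ZT20, and at 1.71, 1.39 and 1.83 CPM and 2.08, 1.5 and 1.81 CPM at ZT8. Wild type at ZT20 stood above all other livers. The log2 fold change between genotypes at ZT20 was −1.96 (SE 0.18, adjusted p = 1.25e-05, edgeR), the difference of the genotype effects was 2.09 (SE 0.29, adjusted p = 0.000495, edgeR), and Ncoa4 rose by 2.59 over time in wild type (SE 0.20, adjusted p = 2e-07, edgeR). Without the wild-type mice 2 and 3 at ZT8, Ncoa4 still passed both for the difference (2.02, adjusted p = 0.00624, edgeR) and over time (2.53, adjusted p = 7.8e-05, edgeR). These levels are low, and 16.9% of the stretches of 75 bases in Ncoa4 also occur in Gm6768, so that its counts are uncertain. Hamp2 and Ncoa4 were both highest in the 3 wild-type livers at ZT20.

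The difference of the genotype effects passed for 5 genes of the iron list, with 3 positive values (Ncoa4 2.09, Slc39a8 0.48, Slc11a2 0.47) and 2 negative ones (Steap2 −1.19, Slc25a37 −0.73), beside 3.05% and 2.83% of all genes. With the wild-type mice 2 and 3 at ZT8 left out, 1 was positive and 1 negative. Over time in wild type, 5 genes rose and 7 fell, beside 13.8% and 13.9% of all genes. The 8 with the largest changes were Lcn2 (−5.54), Ncoa4 (2.59), Hp (−1.22), Hpx (−1.04), Slc11a2 (0.87), Slc39a14 (−0.85), Steap3 (0.78) and Slc39a8 (0.48). Slc39a14, a carrier for iron not bound to transferrin, was at 284, 372 and 434 CPM at ZT8 and at 205, 205 and 194 CPM at ZT20, and Steap3, which reduces iron freed from transferrin, at 24.5, 24.2 and 20.3 CPM and at 43.5, 37.5 and 37.4 CPM. With those mice of wild type at ZT8 left out, 4 rose and 2 fell. In Rev-erbα-/-, 5 rose and 1 fell, beside 8.79% and 8.67% of all genes. Steap2 (0.89), Slc25a37 (0.80), Steap3 (0.47), Slc11a2 (0.41) and Aco1 (iron regulatory protein 1, 0.38) were higher at ZT20, and Slc39a14 (−0.62) was lower, on the log2 scale. Over time the list had a median of −0.09 in wild type, and of 0.09 in the knockout.

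**Figure D5:**
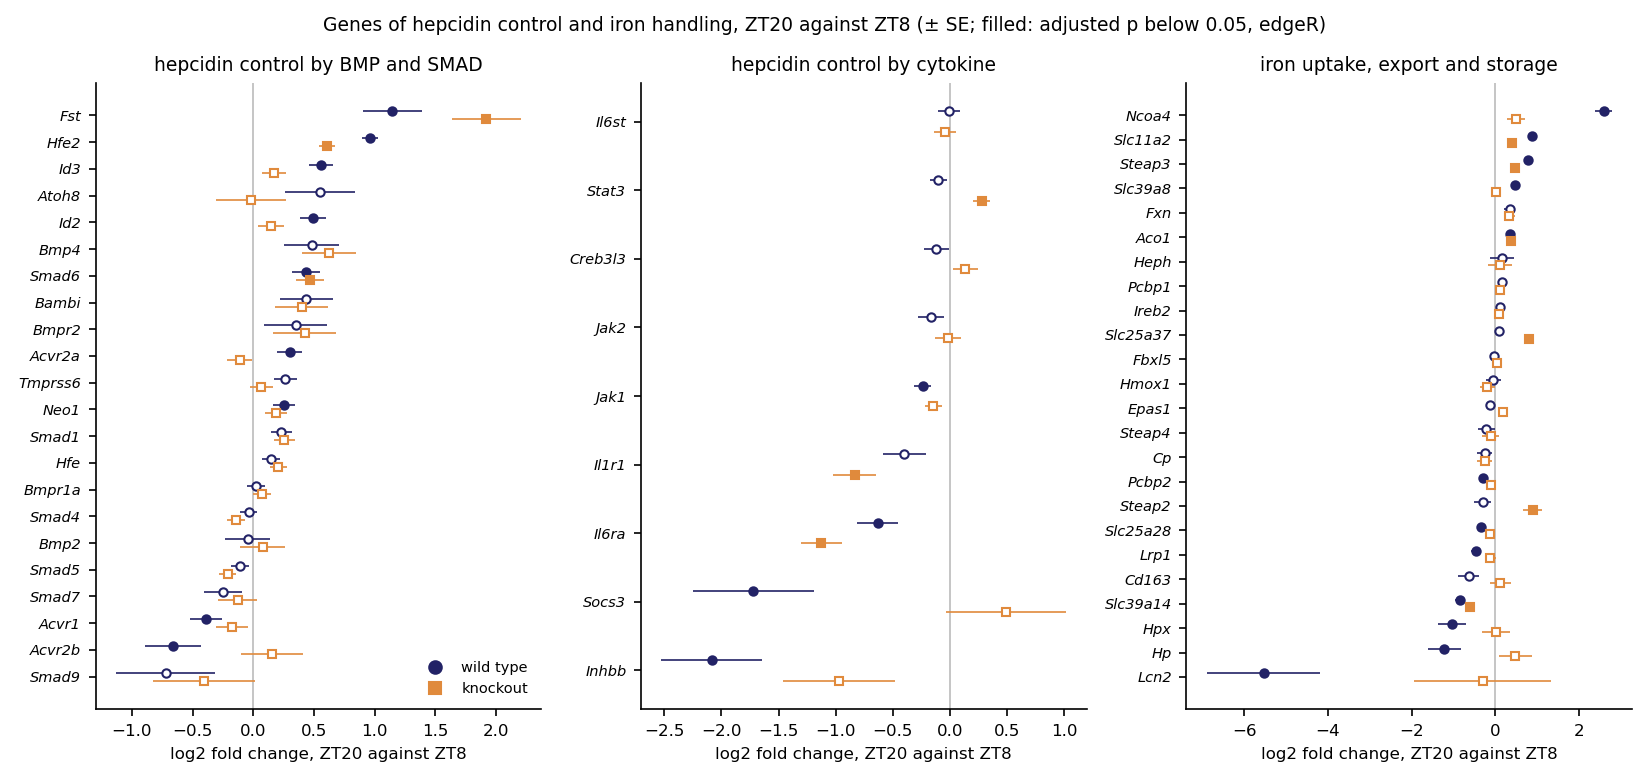
Log2 fold changes from ZT8 to ZT20 (horizontal axes, ± SE) of the tested genes of the lists for BMP and SMAD control, cytokine control and iron handling, with circles for wild type and squares for the knockout, filled where the adjusted p is below 0.05 (edgeR). Hfe2 and Fst lie on the right in both genotypes, while Ncoa4 lies far right (2.59) in wild type only as a filled point.

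The 5 tested genes whose levels over the 12 livers were most like those of Hamp were Tanc2, Mast4, Zfp810, Ckap4 and Asap1. Likeness was the root mean square difference of log2 CPM after centring each gene on its mean, which was 0.183 to 0.214 for these, beside a spread of Hamp itself of 0.355. For Tfrc the nearest were Cyp2c67, Cyp2c68, Eif1a, Exog and Ccdc66, at 0.199 to 0.258 beside a spread of 0.54. None of the other iron genes was among these 5 for either.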

How the data were processed

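Poly(A) RNA of 12 livers was sequenced (maximum read length 75 bases). TopHat alignments to mm10 were made by the authors, and unique ones were assigned to gene symbols by HTSeq (union mode, minimum quality 10, strand ignored). The submitters' processing notes name DESeq2 1.6.3 for their tests. The deposited values are raw counts per gene symbol, with no normalization and no pooling. Their annotation release is not given in the sources used here. Summary lines (no feature and ambiguous reads, 11.9% to 13.5%) were left out. So were alignments that were not unique, at 1.24 to 3.28 per counted read, which count alignments and not reads. They were at 1.76, 2.89 and 3.28 in mice 1, 2 and 3 of wild type at ZT8 and at 2.29 to 2.72 in the knockouts at ZT8. At ZT20 they were at 1.56 to 1.67 in wild type and at 1.24 to 1.56 in Rev-erbα-/-. What this difference reflects was not tested.

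Here, genes were filtered with filterByExpr, libraries scaled by TMM, and 4 group means fitted over all 12 samples with the robust quasi-likelihood test of edgeR 4.0.16 (R 4.3.3). P-values were adjusted by Benjamini-Hochberg over 14488 genes (threshold 0.05). The biological coefficient of variation was 0.123. The standard error is the fold change divided by the root of the F statistic. Overlapping reads make near copies (Hamp and Hamp2, Ftl1) uncertain. In data simulated for the knockout against wild type at ZT8 over 14488 genes, edgeR recovered 58% of 200 genes changed 1.5-fold and 97.5% of 200 changed 3-fold. The changed genes were drawn from those above a minimum mean count, and each gene had 1 spread for all groups. No mice with high acute phase transcripts were simulated, so that recovery in the real data may be lower.

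Alternatives were DESeq2 1.42.0, RLE size factors, no filter, a minimum of 10 counts, a replicate block, a fit on the 6 samples of a comparison, a threshold of 0.01, Hamp and Hamp2 added, each sample left out and, chosen after seeing the data, no wild-type mice 2 and 3 at ZT8. Named genes are the 10 members, up to 8 called genes of each list with the largest change per comparison, a fixed set shown mouse by mouse, Nr1d1 and Arntl, and the 5 nearest patterns. Members and lists were chosen with earlier results of these data known. Of the listed genes, 2 are not reported here and were left out of the lists and their counts.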

Additional observations from a re-analysis of the deposited data

Results flagged for a closer look

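The effect of the Rev-erbα deletion on Tfrc differed between the times of day, with a difference of 1.46 on the log2 scale between the effects at ZT8 and at ZT20 (adjusted p = 0.0274, edgeR, tested as an interaction). The log2 fold change in Rev-erbα-/- was 1.09 at ZT8 and −0.37 at ZT20. All 3 knockouts were above all 3 wild-type mice at ZT8, and the genotypes overlapped at ZT20. The call of Tfrc was lost when any 1 of 7 livers was left out (1.30 to 1.48), and without the wild-type mice 2 and 3 at ZT8 the difference was 1.18 (adjusted p = 0.178, edgeR).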

How the results depend on the processing

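With all 12 livers, 1 of the 10 genes was called at ZT8, 0 at ZT20, 1 for the difference of the genotype effects, 4 over time in wild type and 0 over time in Rev-erbα-/-. DESeq2 called 2, 1 and 1 at ZT8, at ZT20 and over time in Rev-erbα-/-. Without a filter the count was 2 at ZT8 and 0 for the difference. With a threshold of 0.01 it was 0 at ZT8, 0 for the difference and 1 over time in wild type, and on the 6 samples compared 2 over time in wild type. Without the wild-type mice 2 and 3 at ZT8 it was 0 at ZT8, 1 at ZT20, 0 for the difference and 1 over time in wild type. Leaving out 1 liver at a time gave 0 to 3 at ZT8, 0 to 1 at ZT20, 0 to 2 for the difference, 1 to 4 over time in wild type and 0 to 1 over time in Rev-erbα-/-. The cause was not tested. Over all genes, the counts of 1224 at ZT8, 852 for the difference and 4018 over time in wild type were 346, 493 and 1795 without the wild-type mice 2 and 3, and the count at ZT8 was 769 on 6 samples. At the threshold of 0.01 they were 472 at ZT8, 223 at ZT20, 357 for the difference, 2343 over time in wild type and 1231 over time in Rev-erbα-/-. With 1 liver left out, the counts were 542 to 1811 at ZT8, 239 to 656 at ZT20 (526 with all livers), 493 to 1260 for the difference and 1566 to 2847 over time in Rev-erbα-/- (2530 with all). RLE size factors, the filter of 10 counts and adding Hamp to Hamp2 left these counts within 1.5 times.

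Over all genes, the replicate numbers showed no pairing of the samples (mean correlation of deviations −0.01 for the same number and 0.01 for others). Tfrc and Hamp2 nonetheless followed the number in each group, as given below, and mice 1 and 3 were the least alike pair in each group. What this order reflects was not tested. With the number as a replicate block, 2 genes were called at ZT8, 2 at ZT20, 2 for the difference and 1 over time in Rev-erbα-/-. The block gained Trf at ZT8, Hamp2 and Tfrc at ZT20, Hamp2 for the difference and Tfrc over time in Rev-erbα-/-, and lost Id1 over time in wild type.

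Direction changed only for genes that were not called. Hamp2 at ZT8 (−0.03) was 0.0073 with DESeq2, 0.24 with the block and −0.50 to 0.82 with a liver left out. Without the wild-type mice 2 and 3, Tfr2, Fth1 and Bmp6 were 0.038, −0.089 and −0.10 at ZT8, Bmp6 was −0.14 for the difference, and Tfr2 and Bmp6 were 0.066 and −0.10 over time in wild type. With a liver left out, Fth1 was −0.020 to 0.16 and Id1 −0.37 to 0.22 at ZT8, Slc40a1 was −0.016 to 0.25 and Bmp6 −0.18 to 0.24 at ZT20, and Bmp6 was −0.074 to 0.35 for the difference. Over time in wild type Hamp was −0.0089 to 0.30 and Trf −0.071 to 0.082. Over time in Rev-erbα-/- Hamp2 was −0.96 to 0.016, Slc40a1 −0.21 to 0.060, Fth1 −0.047 to 0.061, Ftl1 −0.010 to 0.11 and Bmp6 −0.19 to 0.24. Transcripts at or below 0.117 to 0.167 CPM (3 reads) could not be measured at this depth.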

Other observations

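Tfrc and Hamp2 were highest in the mouse numbered 1 and lowest in the mouse numbered 3 in each of the 4 groups, and the summed Kupffer cell markers were lowest in number 1 and highest in number 3 in each group. This was noticed in the data. Over all genes, the deviations of mice with the same number were not related (mean correlation −0.01 over 18 pairs of mice), and the labels do not say what the number stands for.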
